A study of Mus musculus with 20 samples.

Results

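White adipose tissue (WAT) of 5 WT(HFD) and 5 CD44KO(HFD) mice was compared gene by gene, on the 10 arrays whose labels name that tissue among the 20 of the series, the other 10 being from liver. All mice were C57BL/6 males, 7 months old, that had eaten a high-fat diet (HFD) with 35% fat for 21 weeks. The WT(HFD) mice were wildtype, and the CD44KO(HFD) mice lacked Cd44 in every tissue and had, by the study's methods, been crossed back to C57BL/6J. Each array held total RNA of 1 sample with a single dye, Cy3, on Agilent's mouse 44k design. The labels give neither the fat depot nor what ties a sample to an animal beyond 5 mice of each genotype, so p-values measure the spread between these samples.

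CD44 is a membrane receptor for hyaluronan and other matrix ligands, and it is carried by leukocytes, fibroblasts and many other cells. White fat in obesity holds, besides adipocytes that store triglyceride, macrophages that gather around dying adipocytes, lymphocytes, mast cells, endothelium and a covering of mesothelium, the flat cell layer of the abdominal cavity. RNA of the whole tissue reads all of these together, so that fewer cells of a type and less RNA per cell cannot be told apart in any of the values given here.

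Values are log2 relative signals, that is the log2 of the processed signal minus the 75th percentile of its array, so that 0 stands for that percentile. Before this scaling, the 75th percentile lay between 1541 and 2792 on the 10 arrays. WT(HFD) replicate 1 stood apart from the other 9 arrays. Its negative-control spots had a mean signal of 123.3, against 39.63 to 48.1 on the others, and 89.54% of its spots were well above background, against 63.23% to 69.49%. Its correlation with the other WAT arrays was 0.861 to 0.886 over probes, and that among the others was 0.942 to 0.992. The main results are therefore given with this array and without it. The WAT arrays lay on 3 slides, here called D, E and F, of which D held 2 arrays of each genotype (WT(HFD) replicates 1 and 4, CD44KO(HFD) replicates 2 and 5), E held 3 WT(HFD) arrays and CD44KO(HFD) replicate 3, and F held 2 CD44KO(HFD) arrays. The label of the tissue was borne out by its markers, since Adipoq, Fabp4, Plin1 and Lep were well above background on all 10 arrays.

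**Figure D1:**
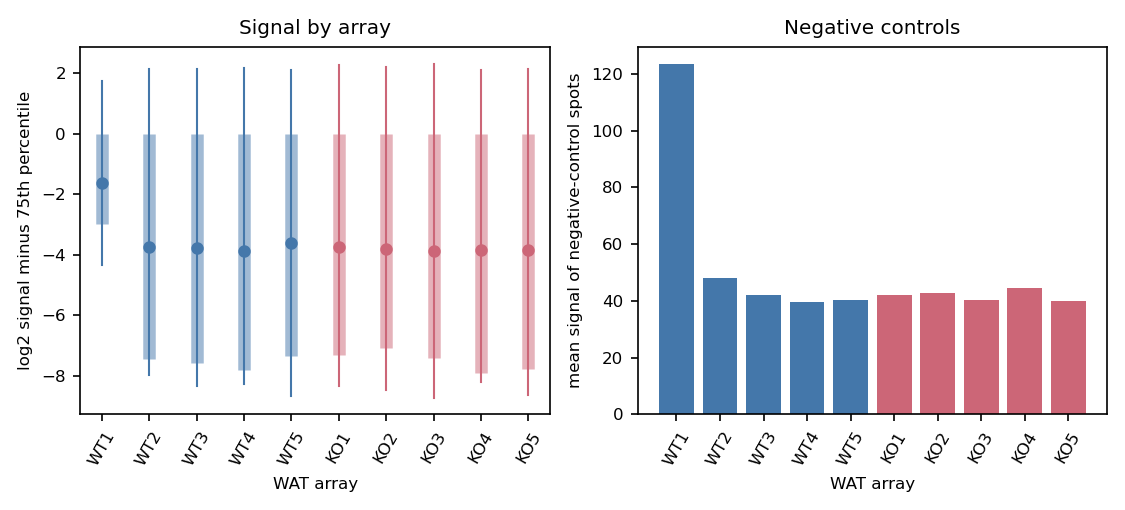
Signal of the 10 WAT arrays, WT(HFD) in blue and CD44KO(HFD) in red. Left, log2 signal minus the array's 75th percentile, with the median (dot), the 25th to 75th percentile (bar) and the 10th to 90th percentile (line); right, the mean signal of the negative-control spots. WT(HFD) replicate 1 has a median of -1.63 against -3.88 to -3.63 on the other arrays, and the highest negative controls.

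Cd44 itself was examined first. By the probe A_52_P229536 (build mm7, chr2:102663537-102663596), the signal was 3.92, 4.19, 4.56, 4.13 and 3.55 in WT(HFD) replicates 1 to 5, and -0.35, -0.58, -0.40, -0.53 and -0.67 in CD44KO(HFD) replicates 1 to 5. The genotypes did not overlap, and Cd44 fell by 4.57 on the log2 scale, or 23.8-fold (standard error 0.19, adjusted p = 7.64e-06, limma). A two-sided exact permutation test gave p = 0.0079, the smallest that 5 arrays against 5 allow. The probe A_52_P523459 (chr2:102662297-102662356) fell by 4.28, or 19.4-fold (adjusted p = 3.87e-05, limma). Both probes were still well above background on all 5 CD44KO(HFD) arrays. The remaining probe, A_51_P407053, was well above background on 1 WT(HFD) array, replicate 1, and was too dim to test. The levels of Cd44 thus went with the labels on each array.

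Across all genes the change was broad and small, with few single genes past the threshold. Over 27653 probes on 10 arrays, 8 fell in CD44KO(HFD) WAT (0.0289%) and 3 rose (0.0108%) at an adjusted p under 0.05 (limma, Benjamini-Hochberg over all probes tested). These 11 probes (0.0398%) read 10 genes or transcripts. At an unadjusted p under 0.05 there were 1825 lower probes (6.60%) and 2286 higher ones (8.27%), 4111 in all (14.9%). The genotypes did not overlap for 573 lower (2.07%) and 1135 higher probes (4.10%). Without WT(HFD) replicate 1, 19 of 27262 probes fell (0.0697%) and 18 rose (0.0660%), and all 11 of the first calls were among these 37 (0.136%). The unadjusted counts were then 1607 lower (5.89%) and 2448 higher (8.98%), and 713 lower (2.62%) and 1528 higher probes (5.60%) did not overlap.

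WT(HFD) replicate 1 bore mainly on dim probes. When the tested probes were divided by mean signal into 4 sets of equal size, the median difference of CD44KO(HFD) from WT(HFD) was -0.55, -0.19, 0.06 and 0.16 from the dimmest set to the brightest. Without that array the same medians were 0.01, -0.01, 0.04 and 0.09. In the dimmest set the array was higher than the mean of the other WT(HFD) arrays by a median of 2.65, and in the brightest it was lower by a median difference of -0.42. The median standard error in the dimmest set was 0.6 with it and 0.32 without it. Accordingly 2036 probes were at least 2-fold lower and 258 at least 2-fold higher with it, and 692 and 478 without it.

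**Figure D2:**
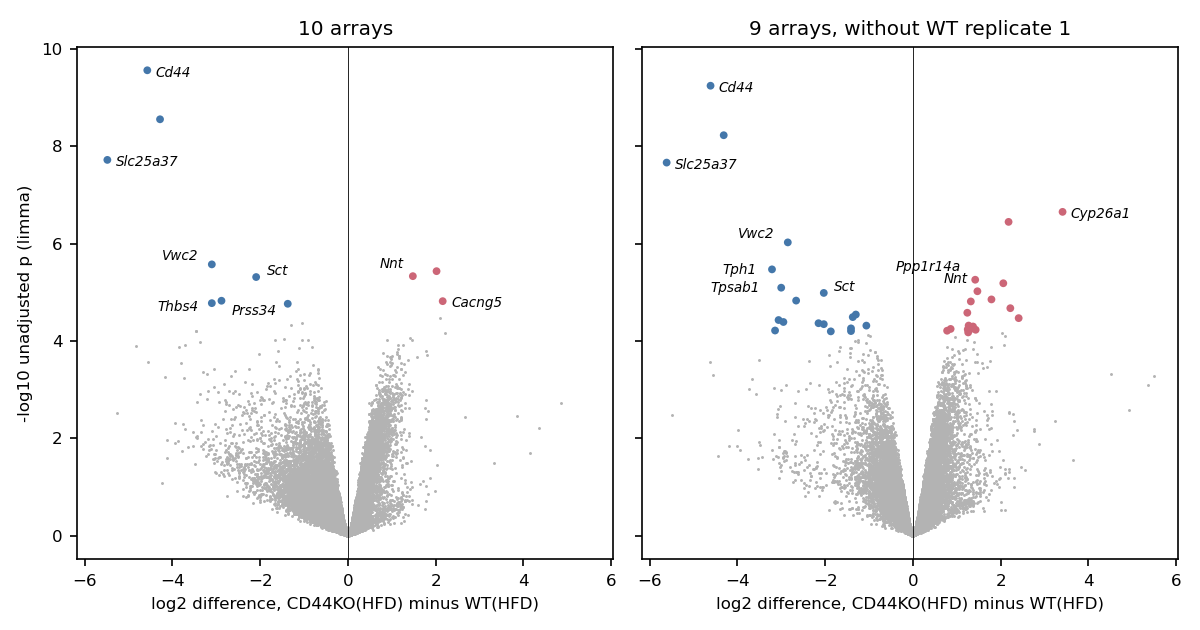
Difference of CD44KO(HFD) from WT(HFD) WAT on the log2 scale against -log10 of the unadjusted p of limma, for the 27653 probes tested on 10 arrays (left) and the 27262 tested without WT(HFD) replicate 1 (right). Colour marks the probes with an adjusted p under 0.05, lower in blue and higher in red, which number 11 on the left and 37 on the right, and the wide left arm of grey probes narrows when the array is left out.

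Of the 11 probes, 2 were of Cd44 and 1 was of Prss34, which the study had also named for WAT on these arrays, and the other 8 were not on its list, nor were 33 of the 37 called without WT(HFD) replicate 1. Vwc2, a secreted protein that binds bone morphogenetic proteins, had signals of -0.77, -1.56, -1.63, -2.80 and -1.95 in WT(HFD) replicates 1 to 5 and of -5.27, -4.58, -4.97, -4.74 and -4.63 in CD44KO(HFD) replicates 1 to 5. It fell by 3.1, or 8.55-fold (standard error 0.33, adjusted p = 0.0185, limma), with every CD44KO(HFD) array far below the lowest WT(HFD) array. A second, dimmer Vwc2 probe differed by -1.26 (adjusted p = 0.402, limma).

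Thbs4, a thrombospondin of the extracellular matrix, had signals of -1.46, -1.69, -1.17, -0.60 and -3.19 in the WT(HFD) arrays and of -4.81, -4.83, -4.40, -4.73 and -4.86 in the CD44KO(HFD) arrays. The knockout arrays lay close together and WT(HFD) replicate 5 was the nearest to them. Thbs4 fell by 3.1, or 8.59-fold (adjusted p = 0.0433, limma), and a second probe of it differed by -1.17 (adjusted p = 0.241, limma). Sct, which encodes the hormone secretin, stood at -0.63, -1.53, -0.84, -0.43 and -0.88 in WT(HFD) and at -2.36, -3.03, -3.19, -3.07 and -3.10 in CD44KO(HFD) replicates 1 to 5. Sct fell by 2.09, or 4.25-fold (adjusted p = 0.0192, limma), and CD44KO(HFD) replicate 1 was the highest of the knockout arrays. Nxnl2, a thioredoxin-like protein known from photoreceptors, lay between -3.48 and -2.60 in WT(HFD) and between -4.71 and -4.32 in CD44KO(HFD) WAT and fell by 1.37, or 2.59-fold (adjusted p = 0.0433, limma).

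A further lower probe was A_52_P622941 (chr14:64325153-64325212), to which the files give the name Slc25a37, a mitochondrial iron carrier, and the accession AK034948. Its signal was -2.68, -2.19, -1.98, -1.97 and -1.96 in the WT(HFD) arrays, while no CD44KO(HFD) array had it well above background. Such a probe has only an upper limit in the knockout, set by the dimmest signals that were well above background on each array, and by that limit its level there was 20.5-fold lower at least (adjusted p = 0.000176, limma). Both probes of the Slc25a37 transcript NM_026331, at chr14:64104507 and chr14:64107682, had other values, with differences of 0.39 (adjusted p = 0.414, limma) and -0.45 (adjusted p = 0.568, limma). The change is therefore one of this probe, and the gene it reads is uncertain.

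Among the higher genes, Nnt, the mitochondrial nicotinamide nucleotide transhydrogenase, of which the C57BL/6J substrain is known to carry a shortened allele, had signals of -0.07, -0.02, 0.17, 0.08 and -0.20 in WT(HFD) and of 1.11, 1.83, 1.71, 1.31 and 1.41 in CD44KO(HFD) replicates 1 to 5. The spread within each genotype was far smaller than the gap between them. Nnt rose by 1.48, or 2.79-fold (standard error 0.17, adjusted p = 0.0192, limma). A second probe, A_51_P113395, differed by 1.16 (adjusted p = 0.127, limma) and passed without WT(HFD) replicate 1 at 1.27 (adjusted p = 0.048, limma), and the probe A_51_P113399 differed by 1.15 (adjusted p = 0.117, limma). The labels name the strain of both genotypes only as C57BL/6, and what the substrain adds to this difference was not tested.

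Cacng5, a transmembrane subunit of calcium channels and glutamate receptors, was dim, from -6.56 to -5.24 in WT(HFD) and from -4.01 to -3.07 in CD44KO(HFD) WAT. It was well above background on 2 of the 5 WT(HFD) arrays and all 5 CD44KO(HFD) arrays and rose by 2.16 (adjusted p = 0.0433, limma). The last of the higher probes, TC1480729 (chr11:85056178-85056226), reads a transcript without a gene name. It stood at -1.01, -1.82, -1.95, -1.65 and -1.82 in WT(HFD) and at 0.29, 0.95, 0.24, 0.14 and 0.25 in CD44KO(HFD) arrays and rose by 2.02, or 4.06-fold (adjusted p = 0.0192, limma). It lies next to the probe of Usp32, a ubiquitin protease, at chr11:85055011-85055070, which differed by 1.41 (adjusted p = 0.112, limma) and rose by 1.26 without WT(HFD) replicate 1 (adjusted p = 0.049, limma). The other Usp32 probe, for AK013783, differed by -0.35 (adjusted p = 0.684, limma).

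Leaving out WT(HFD) replicate 1 added 26 probes, 11 lower and 15 higher. For several of the higher genes that array lay at or above the level of the knockout. Cyp26a1, the cytochrome that breaks down retinoic acid, had a signal of -3.03 in WT(HFD) replicate 1 and of -6.77, -6.99, -6.76 and -6.42 in replicates 2 to 5, against -3.01, -4.26, -2.86, -3.27 and -3.26 in the CD44KO(HFD) arrays. Of WT(HFD) replicates 2 to 5, 1 had it well above background. Its difference was 2.66 with all arrays (adjusted p = 0.189, limma) and 3.41 without that array (standard error 0.27, adjusted p = 0.00152, limma), a size that rests on WT(HFD) signals mostly not above background. Ppp1r14a, an inhibitor of myosin phosphatase in smooth muscle, likewise rose by 1.42 without it (adjusted p = 0.0188, limma), where WT(HFD) replicate 1 stood at -0.01 and the other WT(HFD) arrays between -1.39 and -1.04. Rflna, a filamin-binding protein, rose by 1.79 (adjusted p = 0.0281, limma). Of the predicted gene LOC432451, the probe A_52_P771589 rose by 2.06 (adjusted p = 0.0198, limma), and the probe A_52_P202322 was 2.25-fold higher at least (adjusted p = 0.048, limma), as none of the 4 WT(HFD) arrays had it well above background.

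Klb, the co-receptor with which fibroblast growth factor 21 acts on fat cells, was the gene of this set on the adipocyte list. Its signal was -0.89 in WT(HFD) replicate 1, 0.23, 0.28, 0.37 and 0.40 in replicates 2 to 5, and 1.28, 1.19, 1.30, 1.17 and 0.95 in the CD44KO(HFD) arrays. All knockout arrays lay above all WT(HFD) arrays. Klb rose by 0.86, or 1.82-fold, without replicate 1 (adjusted p = 0.048, limma), and its difference over 10 arrays was 1.10 (adjusted p = 0.165, limma). Cobll1, an actin-binding protein, rose by 0.78 (adjusted p = 0.048, limma), and its second probe differed by 1.17 over 10 arrays (adjusted p = 0.165, limma). Plekhg6, an exchange factor of small GTPases, rose by 1.32, Tcfl5, a helix-loop-helix transcription factor, by 1.31 and Dsg1a, a desmosomal cadherin, by 1.37 (adjusted p = 0.0281, 0.048 and 0.048, limma). Over 10 arrays their differences were 0.77, 0.53 and 0.98 (adjusted p = 0.484, 0.717 and 0.299, limma). No WT(HFD) array other than replicate 1 had Thsd7b, Adamts18 or Fbxw18 well above background, and without it they were higher by at least 2.30-fold, 1.61-fold and 1.19-fold (adjusted p = 0.0422, 0.048 and 0.0462, limma). Another Thsd7b probe, A_52_P247994, differed by -0.33 over 10 arrays and by 0.65 without replicate 1 (adjusted p = 0.86 and 0.165, limma). In Plekhg6, Tcfl5, Dsg1a, Thsd7b, Adamts18 and Fbxw18, WT(HFD) replicate 1 was above every CD44KO(HFD) array.

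Among the lower genes added, Ncf1, a cytosolic subunit of the phagocyte NADPH oxidase, had signals of 1.15, -0.01, 0.08, -0.41 and -0.52 in WT(HFD) and of -1.58, -1.61, -1.76, -1.27 and -1.32 in CD44KO(HFD) replicates 1 to 5. The genotypes did not overlap. Ncf1 fell by 1.30 without replicate 1 (adjusted p = 0.0433, limma), and its other probe, A_52_P651425, differed by -1.26 there (adjusted p = 0.0593, limma). H2-Ab1, the beta chain of an MHC class II molecule, fell by 1.41 by the probe A_51_P215242 (adjusted p = 0.048, limma). That probe stood at 1.91 in WT(HFD) replicate 1, at 2.92 to 3.83 in the other WT(HFD) arrays and at 1.57 to 2.07 in CD44KO(HFD) WAT, so the genotypes overlapped only through replicate 1. The 3 other H2-Ab1 probes differed by -0.85 to -1.42 without it. H2-T24, an MHC class I-like gene, fell by 1.06, and Prr15, a proline-rich protein, fell by 1.41 (each with an adjusted p of 0.048, limma). Over 10 arrays these differed by -2.06 and -1.98 (adjusted p = 0.326 and 0.192, limma). A second H2-T24 probe differed by -1.15 without replicate 1 (adjusted p = 0.102, limma). The brighter Prr15 probe, A_51_P508959, differed there by -0.83 with overlap (adjusted p = 0.181, limma).

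**Figure D3:**
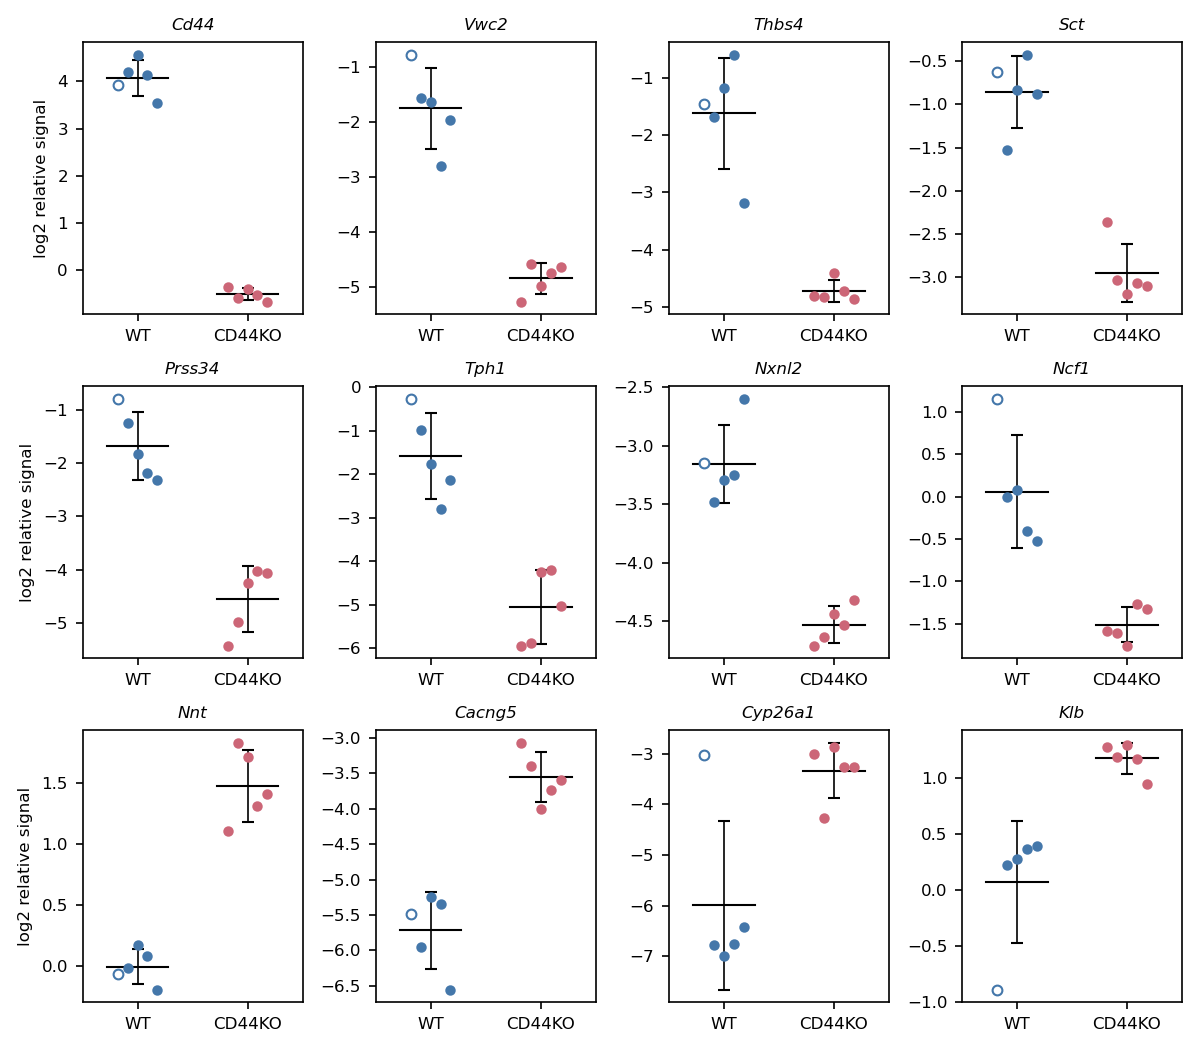
Log2 relative signal of 12 genes (1 probe each) past the threshold with or without WT(HFD) replicate 1, 1 point per WAT array, with the mean and SD of each genotype over 5 arrays. WT(HFD) arrays are blue, with replicate 1 as an open circle, and CD44KO(HFD) arrays are red; the genotypes do not overlap except for Cyp26a1, where replicate 1 lies among the knockout arrays, and the vertical scale differs between panels.

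Some probes near Cd44 on chromosome 2 were among the added calls. Within 20 Mb of Cd44, 461 probes were tested and 14.3% had an unadjusted p under 0.05, against 14.9% of all probes, and without WT(HFD) replicate 1 it was 16% of 456 probes against 14.9%. A probe of Tcp11l1, 1.88 Mb away, fell by 2.03 without WT(HFD) replicate 1 (adjusted p = 0.048, limma), and a clone, AK049434, 1.80 Mb away, was 2.52-fold lower at least (adjusted p = 0.048, limma). The other Tcp11l1 probe, A_51_P356366, differed by 0.53. A further lower probe was that of LOC674214, with no place on a chromosome, which fell by 1.87 without that array (adjusted p = 0.048, limma) and differed by -2.58 over 10 arrays (adjusted p = 0.189, limma).

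The genes were next read in 46 lists of cell types and pathways, each gene by its brightest probe. Of 14572 named genes so read, 830 were lower at an unadjusted p under 0.05 (5.70%) and 1628 higher (11.2%), with a median difference of 0.05. The genotypes did not overlap for 1.94% (lower) and 5.68% (higher) of them, and after adjustment 6 fell (0.0412%) and 2 rose (0.0137%), 8 in all (0.0549%). Without WT(HFD) replicate 1 the shares were 5.49% and 10.7% at an unadjusted p under 0.05 and 2.64% and 7.10% without overlap, and after adjustment 9 fell (0.0624%) and 13 rose (0.0902%), 22 in all (0.153%). The lists' counts are to be read against these shares. Centring each array on its median in place of the 75th percentile raises all differences by the same amount, which moved the median over all probes from -0.06 to 0.42 with all arrays and from 0.04 to 0.10 without WT(HFD) replicate 1. On that scale, with all arrays, the chemokine, interleukin and CD44 ligand lists given below as lower change sign, and those of macrophages and interferon-induced genes come close to 0.

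Mast cell genes had the lowest median of the 46 lists. Mast cells are tissue cells that store proteases, heparin and histamine in granules and carry the high-affinity receptor for immunoglobulin E, and much of their gene activity is known to run through GATA factors. Of 22 markers, 19 were tested, and 14 of these were lower at an unadjusted p under 0.05 (5.70% of all named genes were), 12 of the 19 were lower without overlap (1.94% of all named genes), and none was higher. On the study's own list for WAT, chosen on these arrays, were 4 of the markers, Prss34 and Tpsab1 among them, so that these are no independent sign of direction. Their median difference was -2.57, against 0.05 over all named genes, and it was -2.38 without WT(HFD) replicate 1. With other background corrections it was smaller, at -1.60 with normexp on the local background and -1.48 with normexp on the negative controls. After adjustment 1 of the 19 passed (0.0412% of all named genes did), and 4 of 18 did without that array (0.0624%).

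Prss34, a protease of mast cells and basophils, had signals of -0.79, -1.25, -1.83, -2.18 and -2.31 in WT(HFD) and of -5.44, -4.98, -4.25, -4.03 and -4.07 in CD44KO(HFD) replicates 1 to 5. Prss34 fell by 2.88, or 7.36-fold (standard error 0.37, adjusted p = 0.0433, limma), and by 2.66 without WT(HFD) replicate 1 (adjusted p = 0.0281, limma). Tph1, which makes serotonin in these cells, stood at -0.27, -0.98, -1.77, -2.79 and -2.14 in WT(HFD) and at -5.95, -5.89, -4.24, -4.20 and -5.03 in CD44KO(HFD) WAT by its brighter probe. In both genes no knockout array reached the lowest WT(HFD) array. Both Tph1 probes passed without replicate 1. The brighter one fell by 3.14, or 8.81-fold (adjusted p = 0.048, limma), and the dimmer one was well above background on no CD44KO(HFD) array and by its limit at least 2.43-fold lower (adjusted p = 0.0132, limma).

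Tpsab1, a tryptase of mast cell granules close in sequence to other tryptases, was -2.15, -4.20, -4.34, -5.22 and -4.08 in WT(HFD) and well above background on no CD44KO(HFD) array, at least 5.74-fold lower with all arrays (adjusted p = 0.108, limma) and at least 4.17-fold lower without WT(HFD) replicate 1 (adjusted p = 0.0219, limma). Mrgprb1, a receptor of the Mas-related family, was likewise at least 4.61-fold lower with all arrays and 3.42-fold without that array (adjusted p = 0.115 and 0.048, limma). It stood at -2.55, -3.85, -4.61, -5.37 and -4.97 in WT(HFD) and between -8.33 and -6.38 in CD44KO(HFD) WAT.

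Of the defining markers, Cma1, Cpa3 and Ms4a2 were lower as well, though not past the threshold, and Kit differed little. Cma1, a chymase, had signals of 4.32, 4.24, 3.66, 3.01 and 3.27 in WT(HFD) and of -0.60, -1.77, 1.55, 1.44 and 1.31 in CD44KO(HFD) replicates 1 to 5. Its difference was -3.31, without overlap (adjusted p = 0.15, limma). Cpa3, a carboxypeptidase of the granules, stood between 2.01 and 3.41 in WT(HFD), and at -2, -3.67, 2.21, 0.72 and 0.68 in CD44KO(HFD) replicates 1 to 5 (difference -3.08, adjusted p = 0.222, limma), with replicate 3 inside the WT(HFD) range. Ms4a2, the beta chain of the immunoglobulin E receptor, differed by -2.23 without overlap (adjusted p = 0.192, limma). It was dim, well above background on 3 WT(HFD) arrays and 1 CD44KO(HFD) array. Kit, the receptor for stem cell factor, which other cells of fat carry too, differed by -0.27 (adjusted p = 0.553, limma).

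Mast cell genes thus varied among the knockout arrays as well. The median over the tested markers was -0.50, -0.76, -1.34, -1.60 and -1.52 in WT(HFD) replicates 1 to 5 and -4.66, -4.79, -3.51, -3.39 and -3.31 in CD44KO(HFD) replicates 1 to 5, lowest in replicates 1 and 2. The summed linear level of the list ran from 24.7 to 54.9 in WT(HFD) and from 7.32 to 18.6 in CD44KO(HFD) arrays. The median difference was -3.07 within slide D, -2.11 there without WT(HFD) replicate 1, and -1.49 within slide E.

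The promoters of 6 of these genes are shown because the genes were lower together. Each sequence is the 250 bases before the gene's start in RefSeq (GRCm38.p6), 5′ to 3′ on the gene's strand, and capitals mark the letters of GATA-type motifs, AGATAA or TGATAA or AGATAG or TGATAG on either strand. These letters were chosen after the sequences had been seen. For Tph1 the first of its starts is given.
Prss34 promoter (chr17:25298144-25298393, plus strand): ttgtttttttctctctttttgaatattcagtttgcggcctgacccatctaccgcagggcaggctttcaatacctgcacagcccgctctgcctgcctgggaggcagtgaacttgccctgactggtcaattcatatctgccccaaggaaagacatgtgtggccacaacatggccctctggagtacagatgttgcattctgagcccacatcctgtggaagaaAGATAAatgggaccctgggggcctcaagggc
Tph1 promoter (chr7:46672538-46672787, minus strand): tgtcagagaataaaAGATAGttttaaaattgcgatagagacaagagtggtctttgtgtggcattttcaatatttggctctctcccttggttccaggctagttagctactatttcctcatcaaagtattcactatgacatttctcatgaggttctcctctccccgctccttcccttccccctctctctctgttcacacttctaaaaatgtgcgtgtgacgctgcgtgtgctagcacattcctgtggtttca
Mrgprb1 promoter (chr7:48456343-48456592, minus strand): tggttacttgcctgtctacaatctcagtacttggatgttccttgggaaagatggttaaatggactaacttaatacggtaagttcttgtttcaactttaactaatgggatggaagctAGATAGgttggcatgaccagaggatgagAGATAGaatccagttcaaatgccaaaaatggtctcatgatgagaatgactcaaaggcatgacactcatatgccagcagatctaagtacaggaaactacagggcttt
Cpa3 promoter (chr3:20242182-20242431, minus strand): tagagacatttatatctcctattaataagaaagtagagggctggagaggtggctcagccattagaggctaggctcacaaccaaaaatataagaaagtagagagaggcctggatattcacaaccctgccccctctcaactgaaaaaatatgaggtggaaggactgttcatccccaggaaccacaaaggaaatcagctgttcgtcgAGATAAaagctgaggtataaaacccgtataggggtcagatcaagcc
Cma1 promoter (chr14:55944676-55944925, minus strand): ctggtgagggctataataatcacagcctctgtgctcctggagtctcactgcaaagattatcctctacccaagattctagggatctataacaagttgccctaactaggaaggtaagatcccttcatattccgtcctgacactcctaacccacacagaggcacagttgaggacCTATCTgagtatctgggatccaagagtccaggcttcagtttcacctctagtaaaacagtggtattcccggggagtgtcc
Ms4a2 promoter (chr19:11623720-11623969, minus strand): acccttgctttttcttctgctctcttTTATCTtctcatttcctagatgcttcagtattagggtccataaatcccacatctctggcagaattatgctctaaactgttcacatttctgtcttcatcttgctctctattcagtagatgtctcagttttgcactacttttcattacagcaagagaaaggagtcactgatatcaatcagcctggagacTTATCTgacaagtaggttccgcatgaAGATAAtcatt
Of the 15 tested mast cell markers that have a promoter entry, 12 held such a match, or 80.0%, against 29.7% of all 27025 genes with an entry and 26.5% of all 32851 promoters. Neither the other start of Tph1 nor Kit held one in this window, and Tpsab1 has no entry. A match describes the letters only, and no binding was measured. Since the letters were chosen with these sequences seen, their share here is no test against that of all genes.

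Macrophage markers were lower to a small degree. Macrophages are the most numerous leukocytes of obese fat. Of 38 markers 16 were lower at an unadjusted p under 0.05 (5.70% of all named genes were) and none was higher. The median was -0.53, with none past the adjusted threshold. Without WT(HFD) replicate 1 there were 15 lower (5.49% of all named genes were), with a median of -0.54. On the study's own list for WAT were 7 of these genes. Of the 31 others, 12 were lower, with a median of -0.46. C1qa, a complement component made by tissue macrophages, stood at 5.06, 5.39, 5.50, 5.72 and 5.76 in WT(HFD) and at 4.26, 3.56, 5.22, 5.06 and 5.14 in CD44KO(HFD) arrays (difference -0.84, adjusted p = 0.28, limma).

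Cd68, a lysosomal protein of phagocytes, differed by -0.63 (adjusted p = 0.258, limma), Csf1r, the receptor for macrophage colony-stimulating factor, by -0.30 (adjusted p = 0.488, limma) and Lyz2, lysozyme, by 0.08 (adjusted p = 0.809, limma). Ctss, a cathepsin of antigen-presenting cells, differed by -0.35 (adjusted p = 0.322, limma), and Trem2, a lipid receptor of macrophages in obese fat, by -0.29 (adjusted p = 0.544, limma). The array medians of the list were 3.74 to 4.11 in WT(HFD) and 3.01, 2.84, 3.77, 3.63 and 3.67 in CD44KO(HFD) replicates 1 to 5, so replicates 1 and 2 were the lowest here too. Within slide D the median difference was -0.59, and within slide E, where CD44KO(HFD) replicate 3 is the single knockout array, it was -0.04.

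The genes of dendritic cells and MHC class II, which present antigen, had a median of -0.64. At an unadjusted p under 0.05, 8 of 23 were lower (5.70% of all named genes were), and 10 without WT(HFD) replicate 1 (5.49%). None passed after adjustment when each gene was read by its brightest probe. Cd74, the invariant chain, stood at 5.17, 6.14, 6.43, 6.34 and 6.99 in WT(HFD) and at 5.53, 4.64, 6.02, 5.92 and 5.76 in CD44KO(HFD) arrays, with differences of -0.64 over 10 arrays (adjusted p = 0.421, limma) and -0.90 without replicate 1 (adjusted p = 0.211, limma). H2-DMb1, which loads peptides onto MHC class II, differed by -0.16 (adjusted p = 0.741, limma).

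By array medians the T cell, B cell and interferon lists were highest in WT(HFD) replicate 5. The sizes of their differences depended on it, and the T cell count on replicate 1 too. T cell markers, of which 4 were on the study's own list, had a median of -1. At an unadjusted p under 0.05, 10 of 25 were lower (5.70% of all named genes were). Without replicate 1 the count was 5 of 23, with a median of -0.79. The median was -0.36 with 4 lower when WT(HFD) replicates 1 and 5 were both left out. Lck, a kinase of T cells, stood at -2.25, -1.27, -1.96, -1.81 and 1.19 in WT(HFD) and from -2.79 to -1.51 in CD44KO(HFD) arrays (difference -0.91, adjusted p = 0.482, limma). Cd3g, a chain of the T cell receptor complex, differed by -1.91 (adjusted p = 0.257, limma), Cd3e by -0.94 (adjusted p = 0.366, limma) and Cd2, an adhesion molecule of T cells, by -1.34 without overlap (adjusted p = 0.217, limma).

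B and plasma cell markers had a median of -1.08, with 4 of 18 lower (5.70% of all named genes were). The median was -0.91 with 3 of 17 lower without WT(HFD) replicate 1, and -0.23 with 2 lower without WT(HFD) replicates 1 and 5. Ms4a1, which encodes CD20, was 0.80 in WT(HFD) replicate 5 and -3.73 to -1.44 in the other WT(HFD) arrays, with CD44KO(HFD) arrays from -3.66 to -2.40 (difference -1.06, adjusted p = 0.495, limma). Cd79a, a chain of the B cell receptor complex, differed by -1.33 and Ighm, the heavy chain of immunoglobulin M, by 0.57 in its brightest probe (adjusted p = 0.412, limma) and by -0.53 and -2.76 in its other probes. Of 38 interferon-induced genes, 14 were lower and 1 was higher, with a median of -0.51, and without WT(HFD) replicate 5 there were 9 lower with a median of -0.18, whereas without replicate 1 there were 15 with a median of -0.66. Among the brightest, Ifi27 differed by 0.47 and Bst2 by -0.09 (adjusted p = 0.31 and 0.892, limma). Among 59 interleukins, TNF family members and receptors 14 were lower and 1 was higher, with a median of -0.44. The 45 chemokines and receptors had a median of -0.40 with 4 lower and 1 higher, beside 5.70% and 11.2% of all named genes. Without WT(HFD) replicate 1 these counts were 12 lower and 2 higher of 57 (median -0.35) and 9 lower and 1 higher of 44 (median -0.40). By array medians both lists were also highest in WT(HFD) replicate 5, at -0.55 for interleukins and 0.44 for chemokines. The other WT(HFD) arrays stood at -1.68 to -1.05 and -0.53 to -0.22, and CD44KO(HFD) arrays at -1.87 to -1.61 and -0.75 to -0.47.

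Mesothelial markers were the second group by size. Of 20 markers 17 were lower at an unadjusted p under 0.05 (5.70% of all named genes were), with a median of -1.95. The same count and a median of -1.92 held without WT(HFD) replicate 1. None passed after adjustment and 2 were lower without overlap (1.94% of all named genes were). Slpi was on the study's own list. Upk3b, a uroplakin of the mesothelial surface, stood at 0.31, 0.73, 1.32, -1.38 and 0.26 in WT(HFD) and at -3.09, -3.69, -2.44, -2.18 and -0.84 in CD44KO(HFD) replicates 1 to 5 (difference -2.70, adjusted p = 0.165, limma). WT(HFD) replicate 4 was the lowest WT(HFD) array and CD44KO(HFD) replicate 5 the highest knockout array, and these overlapped. Msln, mesothelin, differed by -1.94, Lrrn4 by -2.54, and Slpi, a protease inhibitor, by -1.78 (adjusted p from 0.165 to 0.17, limma). Igfbp6, a binding protein of insulin-like growth factors, differed by -1.13 without overlap (adjusted p = 0.165, limma), Rspo1, an activator of Wnt signalling, by -0.90, and Wt1, a transcription factor, by -0.48 (adjusted p = 0.367, limma).

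The array medians of the mesothelial list were -0.04, 0.15, 0.44, -1.62 and 0.39 in WT(HFD) and -2.43, -2.72, -2.08, -1.99 and -1.09 in CD44KO(HFD) replicates 1 to 5. The median difference was -2.31 within slide E and -0.96 within slide D, and within slide D without WT(HFD) replicate 1, where replicate 4 is the single WT(HFD) array, it was -0.37. The part in these values of how much of the tissue's surface was taken was not tested.

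Genes of the fat cell were higher in CD44KO(HFD) WAT by small amounts. Of 40 adipocyte identity genes and adipokines 38 lay above 0, with a median of 0.61, and 21 were higher at an unadjusted p under 0.05 (11.2% of all named genes were), none lower. Without WT(HFD) replicate 1 the median was 0.49 and 17 were higher (10.7% of all named genes were), and Klb passed after adjustment (0.0902% of all named genes rose by that rule). The median was 0.79 within slide D and 0.24 within slide E. Lep, leptin, stood at 3.58, 4.84, 4.87, 4.76 and 4.62 in WT(HFD) and at 5.99, 6.46, 4.83, 5.45 and 5.45 in CD44KO(HFD) arrays (difference 1.10, adjusted p = 0.218, limma). Plin1, the perilipin of large droplets, differed by 0.83 without overlap (adjusted p = 0.204, limma) and Adipoq, adiponectin, by 0.45 (adjusted p = 0.366, limma). Fabp4, the fatty acid binding protein of adipocytes, was saturated on 5 arrays and differed by 0.17 (adjusted p = 0.715, limma). Within slide D the differences of Lep, Plin1, Adipoq and Fabp4 were 1.79, 1.01, 0.73 and 0.33. Without WT(HFD) replicate 1 they were 1.20, 0.57, 0.37 and 0.05 there.

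The lipid pathways followed the same pattern. Of 33 genes of fatty acid synthesis 14 were higher (11.2% of all named genes were) and 1 was lower, with a median of 0.38. Fasn, fatty acid synthase, stood at 6.02, 7.16, 6.77, 7.45 and 6.70 in WT(HFD) against 8.27, 7.55, 7.89, 7.47 and 7.73 in CD44KO(HFD) arrays (difference 0.96, adjusted p = 0.198, limma). Scd1, a desaturase, differed by 0.65 and Fads3, of the fatty acid desaturase family, by 0.66 (adjusted p = 0.331 and 0.22, limma). Of 22 genes of lipolysis 12 were higher with a median of 0.54. Pnpla2, the first lipase of triglyceride breakdown, differed by 0.67 without overlap (adjusted p = 0.195, limma), Mgll, monoglyceride lipase, by 0.66 and Prkar2b, a subunit of protein kinase A, by 0.56. Of 21 lipid droplet genes 9 were higher with a median of 0.45, among them Plin4 at 0.66 (adjusted p = 0.238, limma). Cavin1, a protein of caveolae, differed by 0.49 and Cidec, which fuses droplets, by 0.40, each saturated on 2 arrays. On the study's list were 4 of the synthesis genes, Fasn among them.

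Mitochondrial genes were divided by pathway. Of 35 genes of fatty acid oxidation 15 were higher (11.2% of all named genes were) and 1 was lower, with a median of 0.41. Acadm, a dehydrogenase of medium-chain fatty acids, differed by 0.70 without overlap (adjusted p = 0.172, limma). Etfb, an electron carrier, differed by 0.49. Of 35 genes of the citrate cycle and branched-chain amino acid breakdown 14 were higher, with a median of 0.38, and among the brightest of them Mdh2 (0.23) and Cs (0.35) had adjusted p-values of 0.597 and 0.447 (limma). Of 82 genes of the respiratory chain and ATP synthase 3 were higher, a smaller share than the 11.2% of all named genes. None was lower, and their median was 0.22. Cox6a1 differed by 0.21, Atp5b by 0.17 and Atp5g3 by 0.23 on 9 arrays, the spot of WT(HFD) replicate 4 being left out as an outlier. Of 25 genes of cholesterol synthesis 8 were higher with a median of 0.39. All these medians were smaller without WT(HFD) replicate 1, at 0.27 for fatty acid synthesis, 0.46 for lipolysis, 0.42 for lipid droplets, 0.26 for fatty acid oxidation, 0.26 for the citrate cycle, 0.12 for the respiratory chain and 0.33 for cholesterol synthesis, beside 0.07 for all named genes.

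Endothelial markers were higher as well, 10 of 22 at an unadjusted p under 0.05 (11.2% of all named genes were), and 1 was lower. Their median was 0.56, and it was 0.43 without WT(HFD) replicate 1, 1 within slide D and 0.12 within slide E. Cldn5, a tight junction protein of vessels, stood at 2.56, 3.57, 3.83, 3.82 and 3.70 in WT(HFD) and at 4.49, 5.40, 4.74, 4.55 and 4.60 in CD44KO(HFD) arrays, a difference of 1.26 without overlap (adjusted p = 0.165, limma). Robo4, a guidance receptor of endothelium, differed by 0.83 and Flt1, a receptor for vascular endothelial growth factor, by 0.89, both without overlap (adjusted p = 0.192 and 0.195, limma). Within slide D the differences of Cldn5, Robo4 and Flt1 were 1.81, 1.05 and 1.11, and 1.18, 0.48 and 0.58 without WT(HFD) replicate 1. Erythroid genes, which mark blood held in the tissue, were higher in 4 of 7, with a median of 0.83 and summed levels of 58.8 to 227 in WT(HFD) and 160 to 494 in CD44KO(HFD) arrays. Hba-a1, a globin, differed by 1.22, Hbb-bt, another, by 1.12 and Alas2, which starts heme synthesis, by 1.24 (adjusted p from 0.248 to 0.316, limma), with the highest values in CD44KO(HFD) replicate 1. In each of these genes the genotypes overlapped. Within slide D without WT(HFD) replicate 1, where replicate 4 is the single WT(HFD) array, Hba-a1, Hbb-bt and Alas2 differed by -0.30, -0.35 and -0.06. Within slide E they differed by 1.25, 1.42 and 0.48. The part of blood in the other values was not tested.

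Matrix genes as a group lay near 0. The median of 39 collagens was 0.09 (0.21 without WT(HFD) replicate 1). Of these 4 were higher and 1 was lower, beside 11.2% and 5.70% of all named genes. Col1a1 (0.33), Col1a2 (0.01) and Col3a1 (0.21) had adjusted p-values from 0.522 to 0.979 (limma). The median of 51 matrix and fibrosis genes was 0.02, with 6 lower and 5 higher, and Thbs4, described above, was the only one past the adjusted threshold. Ligands of CD44 and genes of hyaluronan turnover had a median of -0.34, with 3 of 25 lower and 1 higher. Spp1, osteopontin, differed by 0.31 (adjusted p = 0.693, limma), Srgn, serglycin, by -0.31 (adjusted p = 0.458, limma) and Itih5, which is linked to hyaluronan, by 0.14 (adjusted p = 0.816, limma). Genes of the cell cycle (41, median -0.06), ER stress (26, median -0.03) and the circadian clock (18, median 0.03) lay near 0 too, and neutrophil markers moved from -0.56 to 0.10 without WT(HFD) replicate 1.

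**Figure D4:**
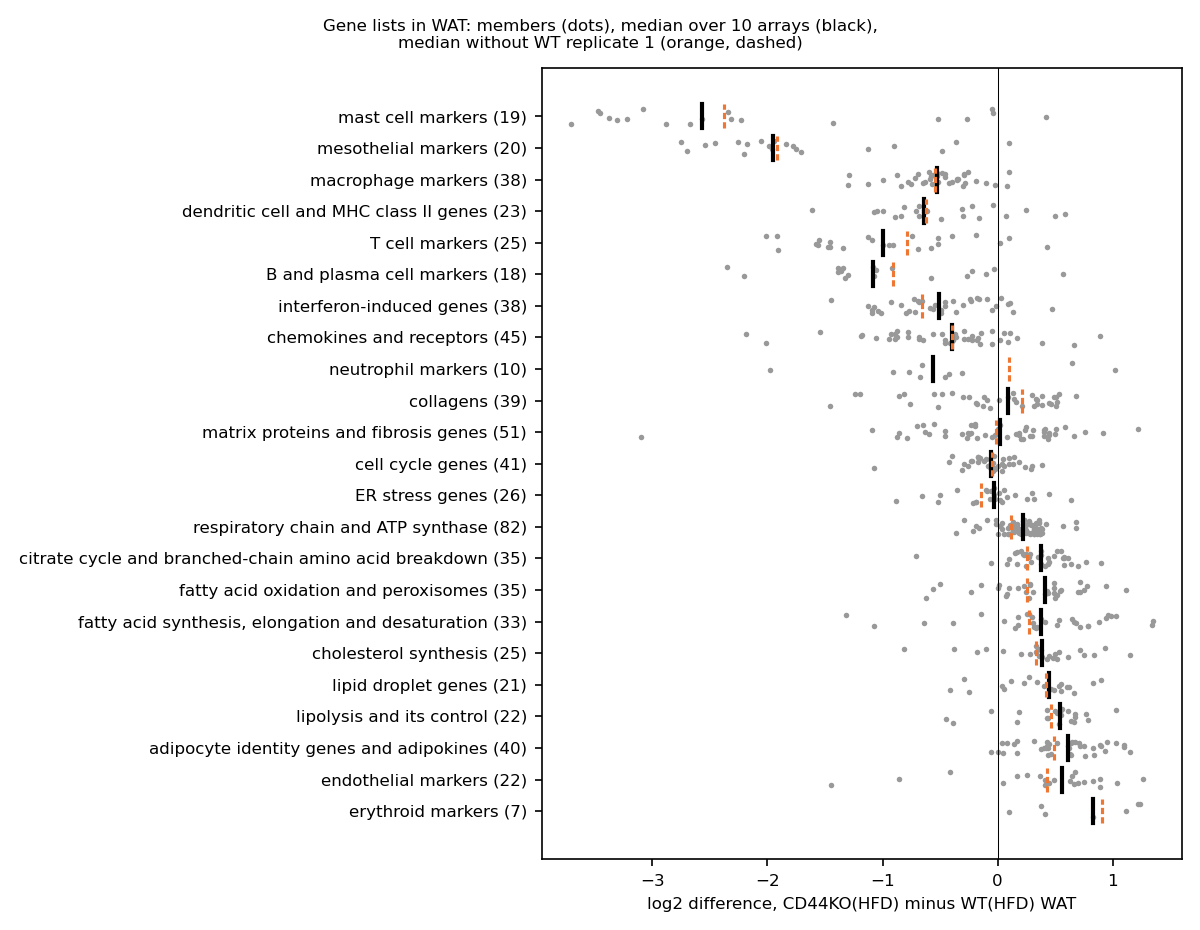
Difference of CD44KO(HFD) from WT(HFD) WAT on the log2 scale for 23 gene lists, with the number of genes tested in parentheses, 1 dot per gene read by its brightest probe. Black bars are medians over 10 arrays and dashed orange bars those without WT(HFD) replicate 1; mast cell and mesothelial markers lie lowest, at -2.57 and -1.95, and the lists of fat cells, endothelium and erythroid cells lie above 0.

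The difference in WAT was set against that in liver of the same design by an interaction term, since no WAT array shared a slide with a liver array. Of the 37 probes past the threshold in WAT with or without WT(HFD) replicate 1, 10 differed between the tissues (1.15% of all 28988 probes did), and 16 did without that array (1.27% of all probes). The 37 were chosen by their difference on these same WAT arrays. A higher share among them was therefore built in and is no test. The 10 were those of Prss34, both Tph1 probes, Tpsab1, Mrgprb1, Vwc2, Thbs4, Sct, Nxnl2 and 1 probe of LOC432451. Thbs4 differed by -3.37 more in WAT (adjusted p = 0.00604, limma), Prss34 by -2.85 (adjusted p = 0.00733, limma) and Vwc2 by -2.73 (adjusted p = 0.0084, limma). In liver 8 of the 10, all but Prss34 and Sct, were well above background on no array of either genotype, so for these the test sets a difference in WAT against background signals in liver. Prss34 and Sct were well above background on all 10 liver arrays and differed there by -0.03 and 0.03.

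Other probes differed in liver in the same direction, with no difference between tissues past the threshold. The Cd44 probe A_52_P229536 differed there by -4.21, TC1480729 by 2.75, Usp32 by 1.01 and both Nnt probes by 1.23 and 1.18. Klb, of the adipocyte list, differed in liver by 0.50 as well (adjusted p = 0.0338, limma). No liver array of CD44KO(HFD) mice had the Cd44 probe A_52_P523459, the probe A_52_P622941 named Slc25a37 or that of LOC674214 well above background, and by their limits they were at least 7.73-fold, 6.44-fold and 2.12-fold lower. The difference between WAT and liver was -0.73 for TC1480729 (adjusted p = 0.204, limma), 0.6 for Klb (adjusted p = 0.312, limma) and 0.26 and -0.02 for Nnt (adjusted p = 0.509 and 0.973, limma). A p that misses the threshold does not show that these values were equal.

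**Figure D5:**
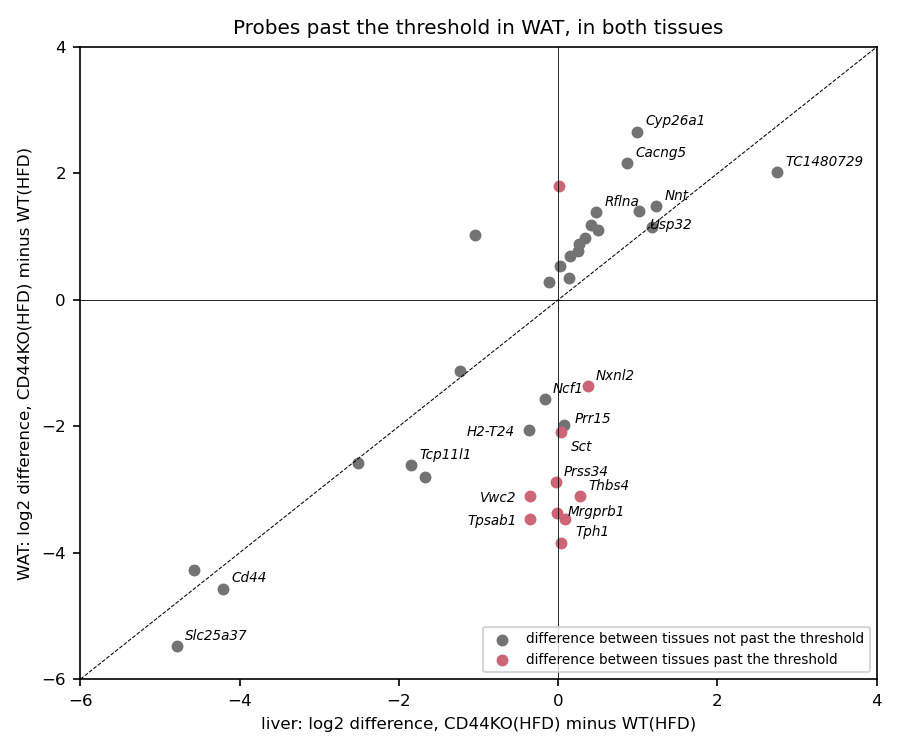
Difference of CD44KO(HFD) from WT(HFD) in WAT (vertical, 10 arrays) against that in liver (horizontal, 10 arrays) on the log2 scale, for the 37 probes past the threshold in WAT with or without WT(HFD) replicate 1. Red marks the 10 probes whose difference between tissues passed the threshold, and the dashed line marks equal differences, with probes not above background drawn at their measured signals; Cd44, Slc25a37, Nnt and TC1480729 lie near it, and the mast cell genes, Vwc2, Thbs4 and Sct lie near 0 in liver.

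Within slides most called probes kept their direction. All 11 probes called on 10 arrays kept their direction within slide D and within slide E. Of the 37 probes, 32 did within slide D (not Plekhg6, Adamts18, Fbxw18, Tcfl5 and the probe A_52_P202322 of LOC432451), 37 within slide D without WT(HFD) replicate 1 and 37 within slide E. The genotypes did not overlap in any of the 11 probes, nor in any of the 37 without WT(HFD) replicate 1. These directions were thus fixed in advance, and only the count of the 37 within slide D with that array could differ. Slide F held no WT(HFD) array and gives no value. With slide as a block in the fit, 3 of the 11 probes passed the threshold, both of Cd44 and the probe A_52_P622941 named Slc25a37.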

How the data were processed

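RNA of liver and white adipose tissue from 5 WT(HFD) and 5 CD44KO(HFD) mice had been hybridised to 1-colour Agilent mouse arrays (20 arrays, 1 for each sample). The deposited values are intensities (gProcessedSignal), background-subtracted by Agilent Feature Extraction (9.5 by the submitters' processing notes, 9.5.3.1 per the file headers), of 45018 spots per array. The table of the whole series that the authors deposited holds the same intensities. Samples were grouped by their labels. The members, gene lists and tests were chosen with earlier results of these data known. The sources used here state no array test.

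In R 4.3.3, log2 of each spot was taken and the 75th percentile over the array's spots other than controls was subtracted. Outlier spots were then left out and the remaining spots averaged per probe. Of 41174 probes, those well above background on at least 3 arrays of a group entered the fit (limma 3.58.1, lmFit and eBayes, statmod 1.5.0, data.table, version 1.17.8), with Benjamini-Hochberg adjustment over all probes tested and a threshold of 0.05. Gene names came from RefSeq accessions for 23072 probes and otherwise from the files, whose probe positions are of build mm7. The fit was checked on simulated data modelled on the arrays without WT(HFD) replicate 1, which does not check the fit that holds that array. The number of arrays limits the precision.

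Named in the text were Cd44, the called probes with a gene name that were well above background on all arrays of a genotype and did not overlap (up to 12 each way, up to 10 more each way without WT(HFD) replicate 1), genes of the study's own list only as counts and list members, and per list up to 4 called or else the 3 brightest members. Clone and predicted transcripts, second probes, and further list members and called probes were named after their values had been seen. Some genes that the rule names are not reported here. Alternatives were the background correction, the scaling, the filter, slide and replicate blocks, array weights, a joint fit with liver and each array left out. Same-numbered samples deviated together with correlations of -0.21 to 0.09, so the numbers were not taken as pairs.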

Additional observations from a re-analysis of the deposited data

Results flagged for a closer look

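In 202 groups of WAT arrays (the named probes and 3 array measures, by genotype), an array was set apart when its gap to the nearest other array exceeded 0.71 of the group's range, or 0.829 where a spot was missing. Chance gives this in about 1 in 20 groups. Replicate 1 of WT(HFD) was the array set apart in 23 cases, 16 as the highest and 7 as the lowest. The gap was 0.766 of the range for spots well above background and 0.899 for negative controls. As the highest, replicate 1 stood apart by 0.832 in Plekhg6, 0.858 in Adamts18, 0.744 in Ppp1r14a, 0.789 in Prr15 and 0.889 in H2-T24. It did so by 0.857 in LOC432451 (probe A_52_P202322), 0.905 in LOC674214, 0.905 in Fbxw18, 0.805 in Tcfl5 and 0.82 in Thsd7b, and by 0.857 in Cyp26a1, 0.892 in Tcp11l1, 0.756 in Dsg1a and 0.813 in AK049434. As the lowest, it stood apart by 0.876 in Usp32, 0.742 in Cobll1, 0.867 in Klb, 0.731 in Plin1, 0.808 in Lep, 0.734 in Atp5b and 0.796 in Cldn5. Every probe in which it was set apart as the highest, and Usp32, Cobll1 and Klb among the lowest, was called only without this array. It stood apart in them partly through that choice, so the rate of 1 in 20 does not hold there. The part of this array's raised dim signals in each case was not tested.

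The other arrays set apart were few. CD44KO(HFD) replicate 1 was highest in Sct (0.807), H2-DMb1 (0.728) and Cox6a1 (0.854). CD44KO(HFD) replicate 2 was highest in TC1480729 (0.817) and Cldn5 (0.728) and lowest in LOC432451 (0.733). CD44KO(HFD) replicate 3 was highest in Thbs4 (0.721) and Bst2 (0.808), and WT(HFD) replicate 5 in Lck (0.716).

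The difference between genotypes was not the same in WAT and liver by an interaction term (limma, adjusted p under 0.05) for 10 of the called probes. These probes had been called on the same WAT arrays, a choice that favours such a result. The difference in WAT minus that in liver was -2.85 for Prss34, -2.12 for Sct, -2.73 for Vwc2, -3.37 for Thbs4, -1.74 for Nxnl2, -3.56 and -3.87 for the Tph1 probes, -3.37 for Mrgprb1, -3.11 for Tpsab1 and 1.79 for LOC432451. All 10 also passed without WT(HFD) replicate 1. Only Prss34 and Sct were well above background in liver. For the other 8 no liver array was, so the sizes given rest on background signals there, and for Tpsab1, Mrgprb1 and the dimmer Tph1 probe on such signals in CD44KO(HFD) WAT too.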

How the results depend on the processing

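Both Cd44 probes fell past the threshold in the 23 settings with a test, and with the values within slides their differences were -4.8 to -4.09 and -4.57 to -3.8. The count of called probes was less stable. Over all 10 arrays 11 probes were called, and there were 35 with normexp on the local background, 19 with median centring, 3 with no filter on dim probes, 4 with slide as a block, 2851 with array weights and 1817 in a joint fit with liver. Without WT(HFD) replicate 1 the count of 37 became 56 with normexp on negative controls (chosen after seeing the data), 14 with no filter, 21 where every array had to be well above background, 14 with slide as a block, 2542 with array weights and 1193 in the joint fit. With a replicate block it was 3 in both cases, although the numbers pair no samples. Array weights gave WT(HFD) replicate 1 a weight of 0.09 and another array one of 9.97. The cause of these shifts was not tested. Quantile normalization, outlier spots kept, the series table and slide as a random block left both counts within 1.5 times, though not always with the same probes. Of the 11 probes, 7 were called with quantile normalization, 7 with median centring and 9 with normexp on the local background. Without WT(HFD) replicate 1, normexp on the local background called 41 probes, of which 14 were among the 37. Quantile normalization then called 30, of which 28 were among them.

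Leaving out 1 array gave 3 to 37 calls over 10 arrays, the highest without WT(HFD) replicate 1, and 3 to 6 without any other. Among the 9 other arrays it gave 6 to 40, the highest without WT(HFD) replicate 4, and at most 17 without any of the rest. Called on all of these were both Cd44 probes and A_52_P622941 (named Slc25a37), and among the 9 arrays Cyp26a1, TC1480729 and Vwc2 too. For the liver comparison 16 of the called probes passed without WT(HFD) replicate 1, against 10. Of the named genes' values over 10 arrays, 1990 kept direction and side of the threshold, 103 lost the call, 110 gained it and 50 below the threshold changed sign, and without WT(HFD) replicate 1 375 kept both and 373 lost the call. No called value changed sign. Among those that did, median centring turned Ctss to 0.13, Csf1r to 0.18, Trem2 to 0.19, Kit to 0.21, Srgn to 0.17, H2-DMb1 to 0.32 and Bst2 to 0.39, and slide as a block turned Adamts18 to -0.12. Arrays with 5 samples a genotype and probes near background limit what small differences can be seen.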

Other observations

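Genes of the male accessory glands were high on some CD44KO(HFD) arrays. These genes were chosen after their values were seen, and none passed the threshold. Svs6, a protein of seminal vesicle fluid, had signals of -4.88, -7.75, -8.13, -8.10 and -8.50 in WT(HFD) replicates 1 to 5 and of -5.76, -4.82, 0.03, -1.33 and -1.25 in CD44KO(HFD) replicates 1 to 5 (adjusted p = 0.168, limma). Svs5, of the same family, stood between -5.69 and -1.38 in WT(HFD) and at -3.14, -1.15, 3.63, 1.99 and 2.04 in CD44KO(HFD) arrays, a difference of 4.36 (adjusted p = 0.204, limma). Tgm4, the transglutaminase of the prostate, stood between -5.95 and -3.91 in WT(HFD) and at -6.03, -4.50, 1.52, -0.05 and 0.02 in CD44KO(HFD) arrays. Svs4, Pbsn, Ceacam10 and Pate4 were likewise highest among the knockout arrays in replicates 3, 4 and 5, but WT(HFD) replicate 1 had the highest Pbsn (-0.80) and Pate4 (-3.29) of all arrays. It was also highest in Svs2, another seminal vesicle gene, at -0.41 against -4.56 at most in CD44KO(HFD) WAT, and in Msmb, a prostate gene, at -2.20 against -8.26 at most. The part of such tissue in the other differences was not tested.

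Probes named for immunoglobulin heavy and light chains, which plasma cells transcribe, were mostly lower in CD44KO(HFD) WAT and were also chosen after their values were seen. Of 43 tested, 42 lay below 0 and 26 were lower at an unadjusted p under 0.05 (6.60% of all probes were), with a median of -2.32 and none past the adjusted threshold (limma). Without WT(HFD) replicate 1 the median of 40 probes was -2.16 with 14 lower (5.89% of all probes were). Many of these probes read the same chains, and those of Igh-1a and Igl-V1 were on the study's own list for WAT. In most probes the genotypes overlapped, and WT(HFD) replicate 5 was often the highest array. By the Igl-V1 probe A_51_P503756, WT(HFD) replicates 1 to 5 stood at 2.03, -0.83, 1.33, -0.33 and 4.25, and CD44KO(HFD) arrays from -2.92 to 0.49. The part of replicate 5 in these differences was not tested. The exception above 0 was the Ighm probe A_52_P358360, at 0.57, while the other Ighm probes stood at -0.53 and -2.76.

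Rbm45, an RNA-binding protein, stood at -1.16, -2.97, -3.42, -8.02 and -3.50 in WT(HFD) and between -0.10 and 0.21 in all CD44KO(HFD) arrays, without overlap (difference 3.86, adjusted p = 0.185, limma, WT(HFD) replicate 4 being far below the others). It too was chosen after its values were seen.

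Other cell markers had small or uncertain differences. Natural killer and cytotoxic cell markers had a median of -0.87 with 4 of 17 lower (5.70% of all named genes were). The median was -0.56 without WT(HFD) replicate 1, -0.41 without replicate 5 and -0.07 without both, with 2 lower each time. Eosinophil and innate lymphoid cell markers had a median of -0.81 with 3 of 12 lower, and of -0.30 with 4 lower without WT(HFD) replicate 1. Thermogenic genes had a median of 0.49 with 6 of 18 higher (11.2% of all named genes were) and 1 lower. All these counts are at an unadjusted p under 0.05, and none passed the adjusted threshold (limma). Markers of epididymis (7 tested, median -0.27) and skeletal muscle (14 tested, median -0.11) changed sign without WT(HFD) replicate 1, to 0.28 and 0.31.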
